A study of Homo sapiens with 14 samples.

Results

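The genes described are 31 genes of the ATF4 arm of the integrated stress response, taken from a list of symbols, and all 31 were found in a table of read counts for 24729 genes. The list was chosen with earlier results of these data known, so its shares set beside those of all genes are descriptive only. The 31 genes comprised transcription factors, feedback regulators, enzymes that make amino acids, secreted stress hormones and a few other targets. After a filter on low counts 30 of them were tested among 14406 genes. The remaining gene, FGF21, had 14 reads in all, in 7 libraries. The 14 RNA-seq libraries came from K562, an established human line from chronic myeloid leukemia that carries erythroid traits. Unmodified cells formed the WT group (n = 2). The 4 other groups stably carried a Flag- and biotin-tagged, catalytically dead Cas9 (dCas9), BirA, which is a biotin ligase, and guide RNAs. These sgRNAs were non-targeting in sgGal4 (n = 3) and directed to elements of the β-globin cluster in sgHS2 (n = 3), sgHBG (n = 3) and sgHS1-5 (n = 3).

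Each sgRNA group came from its own stable population, and the action of the sgRNAs and other features of that population cannot be told apart. Nothing in the labels says that replicates came from separate cultures, so the p-values reflect only the spread between libraries, which may be technical. In these bulk libraries fewer cells expressing a gene and less RNA per cell cannot be told apart.

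The integrated stress response begins when a kinase such as PERK, GCN2, HRI or PKR phosphorylates the translation factor eIF2α. Most translation then slows, while the ATF4 mRNA, held back by upstream open reading frames, is translated more. ATF4 protein, as a dimer with C/EBP partners, raises transcription of genes for amino acid synthesis, transport and tRNA charging. CHOP, encoded by DDIT3, and ATF3 join it in prolonged stress. Since ATF4 is largely set by translation, its mRNA level is no measure of its protein.

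Libraries held 5694448 to 11335831 counted reads, with the 3 sgHS1-5 libraries the shallowest. A χ² of the counts of 2 replicates, divided by its degrees of freedom and near 1 where libraries differ by counting error only, was 1.24 to 1.71 for 6 of 13 pairs. It was 84.2 and 87.6 between sgGal4 1 and the other sgGal4 libraries, 16.3 and 15.6 between sgHS2 2 and its partners, and 17.1 and 11.2 between sgHS1-5 2 and its partners. Replicates 1 and 3 of sgHS1-5 stood at 3.01. The erythroid markers of K562 were present in every library, and the list of 8 summed to between 1493 and 2807 CPM (counts scaled to library size with TMM factors). The fibroblast list of 5 genes summed to 4.81 to 21.1 CPM, with LUM at 0 in all 14 libraries. The epithelial list of 4 summed to 41.2 to 145 CPM, almost all from EPCAM, with KRT5 at 0 in all 14. MS4A1, a B-cell gene, and CDKN2A and CDKN2B, which are deleted in K562, were at 0 in the libraries of the other groups and were found in sgHS1-5, except that CDKN2B was at 0 in sgHS1-5 1.

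Compared per transcript length, the listed genes spanned a wide range. In WT the RPKM level was 658 ± 2.81 (SD, n = 2) for ASNS, 622 ± 27.4 for ATF5, 603 ± 2.95 for DDIT4, 491 ± 4.13 for ATF4 and 472 ± 9.45 for GDF15. At the other end of the tested genes, ADM2 stood at 11.1 ± 0.268 RPKM, GPT2 at 10.0 ± 0.381 and VLDLR at 0.836 ± 0.0885. In sgHS1-5 the order differed, with ATF4 at 199 ± 62.8 RPKM (n = 3), DDIT4 at 116 ± 2.76, ASNS at 40.3 ± 6.12 and ATF5 at 39.4 ± 23.7.

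Summed over the 31 genes, WT 1 and 2 held 10550 and 10610 CPM. The sgGal4 libraries held 7550, 5671 and 5623 CPM, the sgHS2 libraries 6801, 7641 and 6707 CPM, and the sgHBG libraries 6097, 6055 and 5975 CPM. The sgHS1-5 libraries held 2141, 2758 and 2215 CPM, below every other library, while WT lay above every other. The mean was highest in WT for 23 of the 30 tested genes and lowest in sgHS1-5 for 28. The exceptions at the low end were ALDH18A1 and VLDLR, lowest in WT. For 25 of the 30 genes all sgHS1-5 libraries lay below every other library, a pattern that 8.22% of all tested genes had, and for 0 of the 30 they lay above every other, against 7.8% of all tested genes. For 18 of the 30 both WT libraries lay above every other, against 14.3% of all tested genes, and for 0 both lay below every other, against 14.9%.

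**Figure D1:**
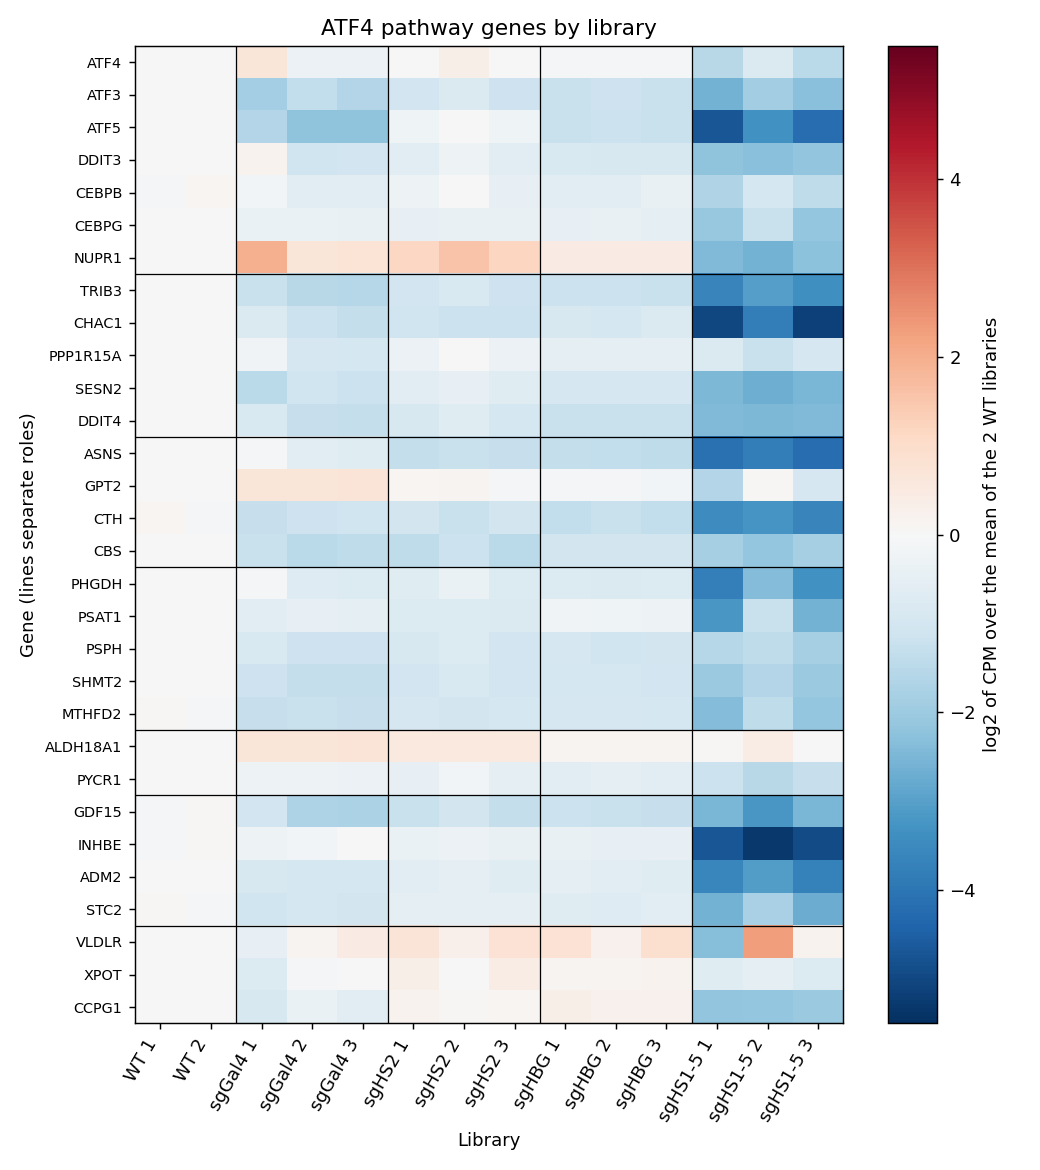
Level of each of the 30 tested genes (vertical axis, grouped by role) in each of the 14 libraries (horizontal axis), as the log2 of its CPM over the mean of the 2 WT libraries (color). The sgHS1-5 columns are the darkest blue for most genes, and the deepest red cells are NUPR1 in sgGal4 1 and VLDLR in sgHS1-5 2.

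Against sgGal4, 27 of the 30 genes fell in sgHS1-5 and 0 rose, where 40.4% of all tested genes were called (20.3% higher and 20.2% lower). The median log2 difference of the 30 genes was −1.32, beside 0.02 over all genes. Against WT, 27 also fell and 0 rose in sgHS1-5, with 42.9% of all genes called and a median of −2.16 beside 0.05. Against sgHBG 26 fell and 0 rose (25.2% of all genes called, median −1.33), and against sgHS2 28 fell and 0 rose (38.9% of all genes called, median −1.44). These comparisons share the sgHS1-5 libraries. With sgHS1-5 2 and 3 left out, 26 genes were lower than in sgGal4 (median −1.61, 17.2% of all genes called) and 27 lower than in WT (median −2.41, 26.7% of all genes called), where the remaining library was assumed to vary like the other groups.

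The sgGal4 group was itself apart from WT. Of the 30 genes 16 fell and 2 rose in sgGal4 against WT, with 42.4% of all genes called (22.7% higher and 19.6% lower) and a median of −0.62 beside 0.03. Without sgGal4 1 that median was −0.96. In sgHS2 against WT 15 fell and 2 rose (33.1% of all genes called, median −0.54), and in sgHBG against WT 19 fell and 0 rose (33.6% of all genes called, median −0.71). These comparisons share the WT libraries.

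The sgHS2 and sgHBG groups were nearer to sgGal4. In sgHS2 against sgGal4 7 genes rose (ATF5, CCPG1, SESN2, ATF3, STC2, TRIB3 and ADM2) and ASNS fell, with 30.1% of all genes called (14.5% higher and 15.6% lower), so the share of the listed genes (26.7%) was near the background. The median was 0.17, beside −0.016 over all genes. Without sgGal4 1 the count was 15, with 38% of all genes called, and the median 0.32. Without any single sgHS2 library the count was 5, with 21.1% to 27.5% of all genes called. In sgHBG against sgGal4 4 rose (CCPG1, ATF5, CBS and SESN2) and 4 fell (ASNS, GPT2, NUPR1 and ALDH18A1), 26.7% of the 30 where 24.7% of all genes were called (12.1% higher and 12.6% lower). These comparisons share the sgGal4 libraries. Without any single sgHBG library that count was 3, with 14.4% to 15.3% of all genes called. In sgHS2 against sgHBG ATF5 and ALDH18A1 were higher and 0 genes lower (8.91% of all genes called, 3.76% higher and 5.15% lower), and neither was called on leaving out any single library of these 2 groups.

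**Figure D2:**
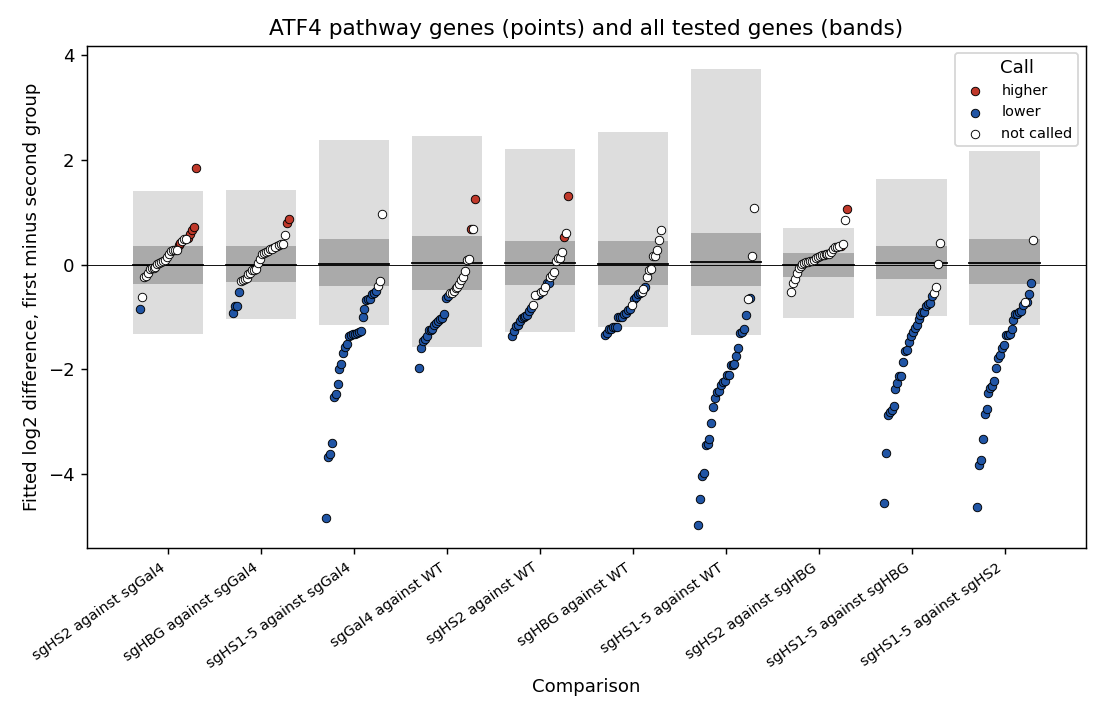
Fitted log2 difference (vertical axis, first minus second group) of each of the 30 tested genes (points, sorted within a comparison, red called higher, blue called lower, white not called) in 10 comparisons (horizontal axis). Grey bands hold the middle 90% and the middle 50% of all 14406 tested genes and the black line their median; the points in the 4 comparisons with sgHS1-5 as the first group reach far below the bands.

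Among the 7 transcription factors, all 7 fell in sgHS1-5 against sgGal4 and against WT. ATF4, the central activator, was at 666 and 653 CPM in WT and at 1059, 521 and 527 CPM in sgGal4. It was at 660, 820 and 664 CPM in sgHS2, at 626, 622 and 612 CPM in sgHBG and at 227, 377 and 236 CPM in sgHS1-5. The sgHS1-5 libraries were low and apart from all others, and sgGal4 1 stood high, at 2.02 times the mean of its partners. The log2 difference of ATF4 in sgHS1-5 was −1.32 ± 0.26 (SE) against sgGal4 (adjusted p = 0.00184) and −1.24 ± 0.28 against WT (adjusted p = 0.00363). With all libraries no comparison among the other groups called ATF4, and its sgGal4 against WT difference of 0.09 ± 0.29 (adjusted p = 0.833) was −0.33 without sgGal4 1 (adjusted p = 0.15). Without sgGal4 1, sgHS2 2 and sgHS1-5 2 and 3 together, ATF4 was called lower in sgGal4 than in WT (−0.33). It was called higher than in sgGal4 in sgHS2 (0.34) and in sgHBG (0.24). The replicates kept in that fit differed by little more than counting error (χ² per degree of freedom of 1.24 to 1.71). Calls of small differences were frequent there over all genes. In the same fit the ATF4 differences of sgHBG against WT (−0.089) and of sgHS2 against sgHBG (0.094) were also called. With the compared groups alone its sgHBG against WT difference was called (−0.087, adjusted p = 0.0131), where 72.1% of all genes were called.

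ATF5, a related factor whose mRNA is also under translational control, spread the most widely across groups among these factors. It was at 943 and 915 CPM in WT, 303, 203 and 202 CPM in sgGal4 and 792, 942 and 794 CPM in sgHS2. In sgHBG it was at 402, 415 and 400 CPM and in sgHS1-5 at 36.0, 91.4 and 50.4 CPM. WT and sgHS2 overlapped, and the other groups formed separate steps below them, with sgHBG above sgGal4 and sgGal4 above sgHS1-5. ATF5 fell by 1.98 ± 0.28 on the log2 scale in sgGal4 against WT (adjusted p = 0.000127) and by 1.99 ± 0.27 in sgHS1-5 against sgGal4 (adjusted p = 0.000141). In sgHS2 it was 3.58-fold higher than in sgGal4, a log2 difference of 1.84 ± 0.26 (adjusted p = 0.000242). The sgHBG against sgGal4 difference of 0.78 ± 0.26 (adjusted p = 0.0423) was not called with the replicate number as a block (adjusted p = 0.0544), with RPKM values (adjusted p = 0.109 to 0.15), without sgGal4 2, without sgGal4 3 or without any single sgHBG library. The sgHS2 against sgHBG difference of 1.06 ± 0.26 (adjusted p = 0.0234) was likewise not called with RPKM values (adjusted p = 0.0569 to 0.0807) or on leaving out any library of either group.

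ATF3, a stress-induced repressor, was at 90.0 and 86.9 CPM in WT and at 24, 34.8 and 29.4 CPM in sgGal4. It was at 42.1, 50.3 and 40.4 CPM in sgHS2, 38.1, 40.1 and 38.1 CPM in sgHBG and 14.6, 23.8 and 17.8 CPM in sgHS1-5. WT stood highest with no overlap and sgHS1-5 lowest, its second library only just under sgGal4 1. ATF3 fell in sgGal4 against WT by 1.58 ± 0.18 on the log2 scale (adjusted p = 2.03e-05) and rose in sgHS2 against sgGal4 by 0.59 ± 0.17 (adjusted p = 0.0182), a call lost without sgHS2 2 (0.49, adjusted p = 0.0648), without sgHS2 2 and sgGal4 1 (0.34, adjusted p = 0.0705) and with the compared groups alone (adjusted p = 0.0592).

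NUPR1, a small stress-induced chromatin protein, followed another order. It was at 89.2 and 94.1 CPM in WT, 353, 146 and 154 CPM in sgGal4 and 202, 268 and 209 CPM in sgHS2. It was at 126, 127 and 126 CPM in sgHBG and at 17.2, 15.2 and 19.2 CPM in sgHS1-5. WT lay between sgHS1-5 and all the rest, and sgGal4 1 was at 2.35 times the mean of its partners. NUPR1 rose in sgGal4 against WT by 1.24 ± 0.31 on the log2 scale (adjusted p = 0.00611), which was 0.71 without sgGal4 1 and not called without WT 1 (adjusted p = 0.0552), with the compared groups alone (adjusted p = 0.0894) or with unfiltered RPKM (adjusted p = 0.0551). It also rose in sgHS2 against WT by 1.3 ± 0.31 (adjusted p = 0.00591), again not called without WT 1 (adjusted p = 0.0575). In sgHS1-5 it fell by 3.66 ± 0.31 against sgGal4 (adjusted p = 4.01e-06) and by 2.42 ± 0.31 against WT (adjusted p = 6.44e-05). The sgHBG against sgGal4 difference of −0.78 ± 0.27 (adjusted p = 0.0487) became −0.25 without sgGal4 1 and was not called (adjusted p = 0.114), nor was it called without any single sgHBG library, without sgHS1-5 2 and 3 (adjusted p = 0.0673), with the replicate block (adjusted p = 0.0772), with the compared groups alone (adjusted p = 0.171) or with RPKM values (adjusted p = 0.122 to 0.17).

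The other factors were DDIT3, which encodes CHOP, and the C/EBP genes CEBPB and CEBPG. In sgHS1-5 against sgGal4 the log2 difference was −1.68 ± 0.28 for DDIT3, −0.85 ± 0.18 for CEBPB and −1.37 ± 0.19 for CEBPG, all called. None of the 3 was called in sgGal4 against WT or in sgHS2 or sgHBG against sgGal4. DDIT3 in sgGal4 1 was at 329 CPM, above both WT libraries at 299 and 285 CPM, while sgGal4 2 and 3 were at 136 and 139 CPM.

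**Figure D3:**
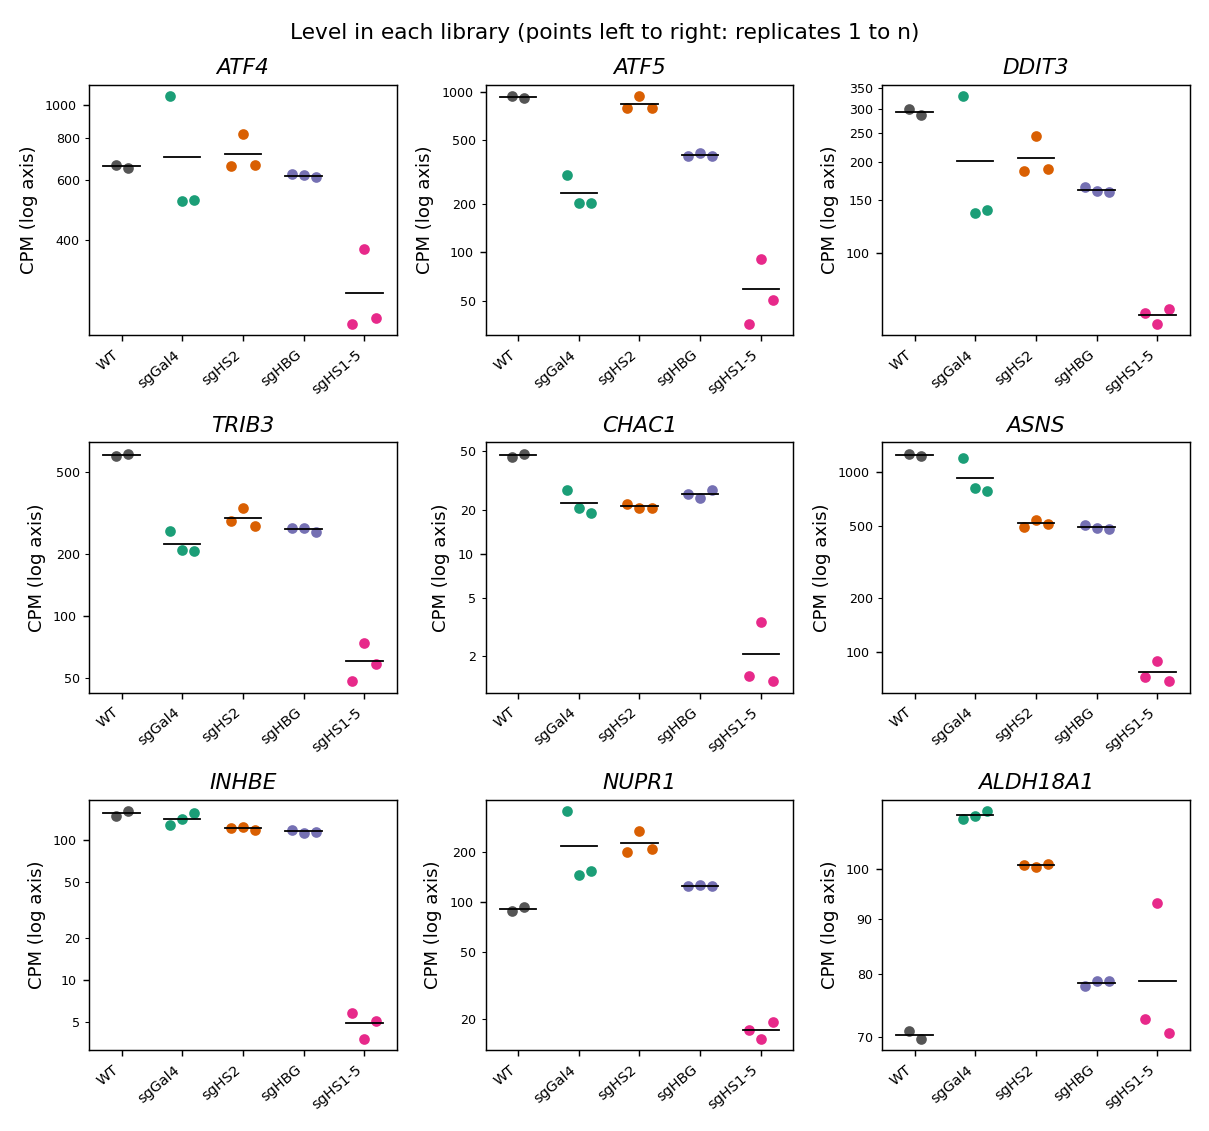
CPM (vertical axis, log scale) of 9 of the genes in each library (points) of the 5 groups (horizontal axis), with group means as black lines. The sgHS1-5 points are the lowest in every panel except ALDH18A1, and ATF5 separates sgGal4 (202 to 303 CPM) from sgHS2 (792 to 942 CPM).

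The feedback and growth brake genes also fell in sgHS1-5, 4 of 5 against sgGal4 and 5 of 5 against WT, and 5 of 5 fell in sgGal4 against WT. TRIB3, a pseudokinase that restrains ATF4 and AKT, was at 593 and 610 CPM in WT and at 258, 208 and 206 CPM in sgGal4. It was at 287, 335 and 273 CPM in sgHS2, 266, 267 and 254 CPM in sgHBG and 48.3, 73.9 and 58.3 CPM in sgHS1-5. WT stood above all and sgHS1-5 below all, the other groups lying close together between them. TRIB3 fell in sgGal4 against WT by 1.43 ± 0.16 on the log2 scale (adjusted p = 1.61e-05) and in sgHS1-5 against sgGal4 by 1.89 ± 0.15 (adjusted p = 2.76e-06).

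CHAC1, which degrades glutathione, was at 45.9 and 48.0 CPM in WT, 27.4, 20.4 and 19.0 CPM in sgGal4, 22, 20.5 and 20.6 CPM in sgHS2 and 25.7, 24 and 27.0 CPM in sgHBG. In sgHS1-5 it was at 1.46, 3.41 and 1.35 CPM, from 9, 25 and 10 reads. The sgGal4 libraries overlapped those of sgHS2 and sgHBG, with WT above all and sgHS1-5 far below. CHAC1 was 10.5-fold lower in sgHS1-5 than in sgGal4, a log2 difference of −3.39 ± 0.26 (adjusted p = 1.83e-06), and differed by −4.48 ± 0.26 from WT (adjusted p = 8.42e-08).

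SESN2, a sestrin that restrains mTORC1, was at 273 and 289 CPM in WT, 100, 131 and 125 CPM in sgGal4 and 185, 203 and 176 CPM in sgHS2. In sgHBG it was at 149, 150 and 147 CPM and in sgHS1-5 at 50.7, 43.4 and 49.9 CPM. None of the 5 groups overlapped, in the order WT, sgHS2, sgHBG, sgGal4 and sgHS1-5. SESN2 rose in sgHS2 against sgGal4 by 0.66 ± 0.11 on the log2 scale (adjusted p = 0.00074), while its sgHBG against sgGal4 difference of 0.32 ± 0.11 (adjusted p = 0.0499) was not called with RLE size factors (adjusted p = 0.0506), no low-count filter (adjusted p = 0.0762), the replicate block (adjusted p = 0.0731) or the compared groups alone (adjusted p = 0.131). Nor was it called without sgGal4 1, sgGal4 3, any single sgHBG library or sgHS1-5 2 and 3. Without sgGal4 1 that difference was 0.21.

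DDIT4, or REDD1, another brake on mTORC1, was at 1024 and 1049 CPM in WT and at 582, 432 and 417 CPM in sgGal4. It was at 559, 644 and 537 CPM in sgHS2, 450, 438 and 440 CPM in sgHBG and 193, 187 and 194 CPM in sgHS1-5. The sgGal4 libraries overlapped those of sgHS2 and sgHBG, with WT apart above and sgHS1-5 apart below. DDIT4 fell by 1.32 ± 0.12 on the log2 scale in sgHS1-5 against sgGal4 (adjusted p = 9.84e-06) and by 1.23 ± 0.13 in sgHBG against WT (adjusted p = 2.13e-05). PPP1R15A, the GADD34 subunit that directs dephosphorylation of eIF2α, was the gene of this group without a call in sgHS1-5 against sgGal4 (−0.32 ± 0.19, adjusted p = 0.194), while it fell in sgHS1-5 against WT (−0.97 ± 0.21).

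The enzymes of asparagine, alanine and cysteine metabolism fell in sgHS1-5 against sgGal4, 4 of 4. ASNS, asparagine synthetase and a classic ATF4 target, was at 1269 and 1235 CPM in WT and at 1198, 815 and 786 CPM in sgGal4. It was at 499, 541 and 516 CPM in sgHS2, at 509, 489 and 483 CPM in sgHBG and at 72.6, 88.9 and 68.4 CPM in sgHS1-5. The sgHS2 and sgHBG libraries overlapped each other and lay below all sgGal4 libraries. ASNS was 12.2-fold lower in sgHS1-5 than in sgGal4, a log2 difference of −3.60 ± 0.17 (adjusted p = 4.4e-08). It fell against sgGal4 in sgHS2 by 0.85 ± 0.15 (adjusted p = 0.0011) and in sgHBG by 0.92 ± 0.15 (adjusted p = 0.00101), whereas its sgGal4 against WT difference of −0.42 ± 0.17 was not called (adjusted p = 0.0546).

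GPT2, the mitochondrial alanine aminotransferase, was highest in sgGal4, at 64.1, 63.8 and 66.9 CPM. It was at 40.02 and 40.7 CPM in WT, 43.5, 44.6 and 38.4 CPM in sgHS2, 37.9, 38.6 and 35.9 CPM in sgHBG and 13.1, 42.2 and 21.4 CPM in sgHS1-5. All sgGal4 libraries lay above every other library, and sgHS1-5 2 reached the level of WT. GPT2 fell in sgHS1-5 against sgGal4 by 1.34 ± 0.28 on the log2 scale (adjusted p = 0.00265) but was not called against WT (−0.65 ± 0.31, adjusted p = 0.105), sgHBG or sgHS2. Without sgHS1-5 2 the GPT2 difference from WT was −1.21 and called (adjusted p = 0.000255). Its sgHBG against sgGal4 difference of −0.79 ± 0.27 (adjusted p = 0.0491) was lost with the replicate block (adjusted p = 0.053), with RPKM values (adjusted p = 0.0564 to 0.0813), without sgGal4 2, without sgGal4 3 or without any single sgHBG library.

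CTH and CBS carry homocysteine to cysteine. CTH was at 148 and 130 CPM in WT, 58.4, 63.9 and 64.2 CPM in sgGal4, 68.6, 60.2 and 68.2 CPM in sgHS2, 53.9, 58.7 and 55.1 CPM in sgHBG and 12.5, 14.6 and 11.2 CPM in sgHS1-5. CBS was at 591 and 617 CPM in WT, 258, 219 and 228 CPM in sgGal4, 227, 265 and 216 CPM in sgHS2, 297, 302 and 303 CPM in sgHBG and 172, 137 and 173 CPM in sgHS1-5. For both enzymes WT stood far above the rest and sgHS1-5 below, and CBS was higher in every sgHBG library than in any sgGal4 or sgHS2 library. CTH differed by −2.28 ± 0.12 in sgHS1-5 against sgGal4 (adjusted p = 1e-07) and by −1.31 ± 0.12 in sgHBG against WT (adjusted p = 3.51e-06). CBS differed by −0.55 ± 0.11 in sgHS1-5 against sgGal4 (adjusted p = 0.00269) and by −1.36 ± 0.13 in sgHS2 against WT (adjusted p = 5.16e-06). The CBS difference of 0.36 ± 0.11 in sgHBG against sgGal4 (adjusted p = 0.037) was lost with the replicate block (adjusted p = 0.0627), with the compared groups alone (adjusted p = 0.0508), with RPKM values (adjusted p = 0.0564 to 0.0664) and on leaving out sgGal4 2, sgGal4 3 or any single sgHBG library.

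The 5 enzymes of serine synthesis and mitochondrial one-carbon metabolism all fell in sgHS1-5 against sgGal4 and against WT. PHGDH, the entry enzyme of serine synthesis, differed from sgGal4 by −2.52 ± 0.29, PSAT1, the next enzyme, by −1.57 ± 0.34, and PSPH, the last, by −0.56 ± 0.13. The mitochondrial enzymes SHMT2 and MTHFD2, which pass the serine carbon to folate, differed by −0.65 ± 0.13 and −0.67 ± 0.19. In sgGal4 against WT PSPH, SHMT2 and MTHFD2 fell by 1.03, 1.24 and 1.24 on the log2 scale, while PHGDH (−0.50, adjusted p = 0.203) and PSAT1 (−0.54, adjusted p = 0.255) were not called. No enzyme of this branch was called in sgHS2 or sgHBG against sgGal4. Without sgHS1-5 2 the MTHFD2 difference from sgGal4 was −1.0 (adjusted p = 4e-05). PSPH has near-identical sequence elsewhere in the genome, so the assignment of its reads is uncertain.

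The proline branch was represented by 2 genes. ALDH18A1, which makes the proline precursor pyrroline-5-carboxylate, was at 70.8 and 69.7 CPM in WT and at 111, 112 and 113 CPM in sgGal4. It was at 100.9, 100.5 and 101.2 CPM in sgHS2, 78.0, 78.9 and 78.7 CPM in sgHBG and 72.7, 93.1 and 70.6 CPM in sgHS1-5. The sgGal4 libraries lay above all others, and sgHS1-5 overlapped WT and sgHBG. ALDH18A1 rose in sgGal4 against WT by 0.68 ± 0.12 on the log2 scale (adjusted p = 0.000499) and in sgHS2 against WT by 0.52 ± 0.12 (adjusted p = 0.00372). It fell against sgGal4 in sgHBG by 0.51 ± 0.10 (adjusted p = 0.00329) and in sgHS1-5 by 0.51 ± 0.10 (adjusted p = 0.00209). The sgHS2 against sgHBG difference of 0.36 ± 0.10 (adjusted p = 0.0439) was lost with RLE size factors (adjusted p = 0.0513), the replicate block (adjusted p = 0.0735) and no low-count filter (adjusted p = 0.089), and on leaving out any library of either group. PYCR1, which completes proline synthesis in mitochondria, fell in sgHS1-5 against sgGal4 (−1.0 ± 0.11) and was not called in sgGal4 against WT (−0.30 ± 0.12, adjusted p = 0.0614).

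The 4 tested genes for secreted hormones fell in sgHS1-5 against sgGal4 and against WT. INHBE, which encodes the βE subunit of activin, was at 148 and 159 CPM in WT, 128, 139 and 154 CPM in sgGal4, 120, 124 and 117 CPM in sgHS2 and 117, 112 and 114 CPM in sgHBG. In sgHS1-5 it was at 5.83, 3.82 and 5.14 CPM, from 36, 28 and 38 reads. Its sgHS1-5 libraries were far below all others, among which WT was apart above sgHS2 and sgHBG. INHBE had the lowest log2 difference of the 30 genes in each comparison of sgHS1-5, at −4.84 ± 0.14 against sgGal4 (28.6-fold, adjusted p = 1e-09) and −4.96 ± 0.15 against WT (adjusted p = 9.55e-10). Its sgGal4 against WT difference of −0.13 ± 0.12 was not called (adjusted p = 0.437), and it fell against WT in sgHS2 by 0.35 ± 0.12 (adjusted p = 0.043) and in sgHBG by 0.42 ± 0.12 (adjusted p = 0.0169).

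GDF15, a circulating stress hormone, was at 437 and 485 CPM in WT and at 226, 143 and 138 CPM in sgGal4. It was at 196, 229 and 184 CPM in sgHS2, 202, 196 and 192 CPM in sgHBG and 81.9, 49.6 and 79.8 CPM in sgHS1-5. WT was apart at the top and sgHS1-5 at the bottom, and sgHS1-5 2 was the lowest library of all. GDF15 fell in sgGal4 against WT by 1.45 ± 0.22 on the log2 scale (adjusted p = 0.000217) and in sgHS1-5 against sgGal4 by 1.26 ± 0.21 (adjusted p = 0.000586).

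ADM2, a peptide of the adrenomedullin family, was at 49.0 and 49.1 CPM in WT, 26.4, 24.8 and 25.2 CPM in sgGal4, 33.2, 34.9 and 31.2 CPM in sgHS2, 34.2, 31.4 and 30.5 CPM in sgHBG and 4.05, 5.87 and 3.79 CPM in sgHS1-5. Every sgGal4 library lay under every sgHS2 and sgHBG library, and sgHS1-5 was far lower. ADM2 fell in sgHS1-5 against sgHBG by 2.80 ± 0.14 on the log2 scale (adjusted p = 2.03e-07) and against sgGal4 by 2.47 ± 0.14 (adjusted p = 2.63e-07). STC2, a secreted stanniocalcin, fell in sgHS1-5 against sgGal4 by 1.28 ± 0.18 and in sgGal4 against WT by 1.02 ± 0.19. FGF21, a metabolic stress hormone, had at most 3 reads in any library, and 0 reads in all 3 sgHS1-5 libraries allowed up to 0.486 CPM in the shallowest, so no difference was detectable at this depth.

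The remaining genes serve varied roles. CCPG1, a receptor for autophagy of the endoplasmic reticulum (ER), was at 43.6 and 43.2 CPM in WT, 23.6, 33.3 and 28.9 CPM in sgGal4 and 49.9, 44.8 and 46.1 CPM in sgHS2. It was at 55.0, 50.7 and 51.5 CPM in sgHBG and at 9.72, 9.97 and 10.5 CPM in sgHS1-5. The sgGal4 libraries were below WT, sgHS2 and sgHBG without overlap, and sgHS1-5 below all. CCPG1 rose against sgGal4 in sgHBG by 0.87 ± 0.12 on the log2 scale (adjusted p = 0.000239) and in sgHS2 by 0.71 ± 0.12 (adjusted p = 0.000628), though with RPKM values the latter was 0.34 and not called (adjusted p = 0.116). It fell in sgHS1-5 against sgGal4 by 1.51 ± 0.13 (adjusted p = 4.55e-06). XPOT, which exports tRNA from the nucleus, fell in sgHS1-5 against WT (−0.64 ± 0.19, adjusted p = 0.0154) and was not called against sgGal4 (−0.40 ± 0.17, adjusted p = 0.0749). It was at 218, 346 and 364 CPM in sgGal4 and at 230, 256 and 215 CPM in sgHS1-5, which overlapped only through sgGal4 1. VLDLR, a lipoprotein receptor, was called in none of the 10 comparisons.

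VLDLR showed the widest spread within a group. It was at 4.14 and 4.01 CPM in WT, from 2.98 to 7.50 CPM over the sgGal4, sgHS2 and sgHBG libraries, and at 0.81, 19.9 and 4.6 CPM in sgHS1-5. Replicate 2 of sgHS1-5 was the highest of all 14 libraries and replicate 1 the lowest. The log2 difference of VLDLR in sgHS1-5 against sgGal4 was 0.95 ± 0.66 (adjusted p = 0.269) and −0.65 without sgHS1-5 2 (adjusted p = 0.326). Without sgHS1-5 2 and 3 it was −2.43, from 1 sgHS1-5 library with 5 VLDLR reads.

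Other genes were also uneven within sgHS1-5. The ratio of sgHS1-5 2 to the mean of its partners was 3.08 for PSAT1 (29.2, 114 and 45.0 CPM) and 2.45 for GPT2. It was 2.43 for CHAC1, 2.22 for PHGDH (43.2, 114 and 59.1 CPM) and 2.115 for ATF5. Replicate 2 lay above both partners for 20 of the 30 genes, below both for 9 and between for 1. GDF15 and INHBE were among those below, at 0.613 and 0.697 of the mean of the partners. In the same libraries MS4A1 was at 2.43, 38.9 and 9.60 CPM, CDKN2A at 0.162, 5.60 and 1.49 CPM and CDKN2B at 0, 4.23 and 2.16 CPM. The lymphoid list of 5 genes summed to 321 to 359 CPM in sgHS1-5, within the 120 to 385 CPM of the other groups, mostly from PTPRC, with CD2 at no more than 0.268 CPM in any library. The part of these transcripts in the values of VLDLR, PSAT1, GPT2, CHAC1, PHGDH and ATF5 was not tested. PSAT1 and PHGDH were lower than in sgGal4 both with all libraries and without sgHS1-5 2 and 3 (−2.68 and −3.26).

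**Figure D4:**
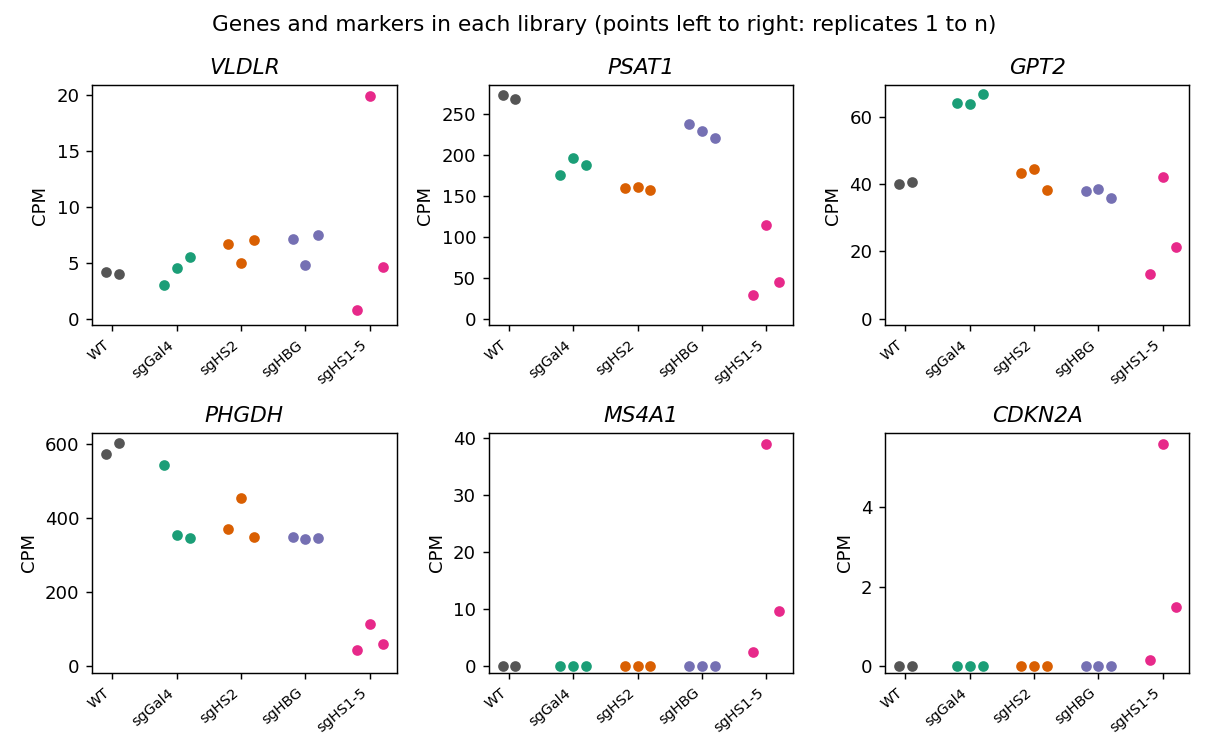
CPM (vertical axis, linear scale) of VLDLR, PSAT1, GPT2 and PHGDH and of the markers MS4A1 and CDKN2A in each library (points) of the 5 groups (horizontal axis). In sgHS1-5 the second point is the highest in all 6 panels, and the markers are at 0 in the other 11 libraries.

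Among RefSeq promoter windows (build GRCh38.p14, from 250 bases before to 50 bases after each start, whereas the deposited values used hg19) 25 of the 31 genes had an entry. The letters TGATGNAA, the core of the C/EBP-ATF response element that ATF4 dimers bind, were searched on both strands. They were found for 5 of these 25 genes (20%), where 4.46% of all symbols with a window held them. The matches are shown as the letters behind this count. Each line gives 30 bases on the strand of the gene with the match in capitals, and the match for CHAC1 and FGF21 reads on the opposite strand.
ASNS, chr7:97872458-97872487, minus strand: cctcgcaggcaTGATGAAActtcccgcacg
ATF3, chr1:212565205-212565234, plus strand: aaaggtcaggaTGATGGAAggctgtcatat
CEBPG, chr19:33374060-33374089, plus strand: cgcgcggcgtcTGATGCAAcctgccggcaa
CHAC1, chr15:40953251-40953280, plus strand: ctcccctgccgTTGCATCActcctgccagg
FGF21, chr19:48755459-48755488, plus strand: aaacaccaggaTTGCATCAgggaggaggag

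The match began 68 bases before the start for ASNS, 191 for ATF3, 42 for CEBPG, 209 for CHAC1 and 54 for FGF21. The same letters, read as the motif, stood in CEBPG, CHAC1 and FGF21 (TGATGCAA), while ASNS and ATF3 differed at the free position. The 4 tested genes of the 5 fell in sgHS1-5 against sgGal4, by 3.60 for ASNS, 0.65 for ATF3, 1.37 for CEBPG and 3.39 for CHAC1 on the log2 scale, as did 27 of the 30 tested genes with or without a match. A match describes letters in this window and is no evidence of binding, and for the other genes with a window, TRIB3 and DDIT3 among them, the lack of one says only that these letters were not there.

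Other genes of the pathway were followed in 7 further lists, of which 2 hold SLC7A11. Their counts stand beside 40.4% of all genes called in sgHS1-5 against sgGal4 (17.2% without sgHS1-5 2 and 3), 42.4% in sgGal4 against WT, 30.1% in sgHS2 against sgGal4 and 24.7% in sgHBG against sgGal4. Upstream, among 15 tested genes for eIF2 kinases, eIF2 and its control, 6 fell and 0 rose in sgHS1-5 against sgGal4, and 4 rose and 1 fell in sgGal4 against WT. Without sgHS1-5 2 and 3, 3 of the 15 fell in sgHS1-5 against sgGal4. The shares called in sgHS1-5 against sgGal4 (40%) and in sgGal4 against WT (33.3%) were near or under those of all genes. EIF2A, an alternative initiation factor, differed by −0.94 ± 0.09 and EIF2B2, a subunit of the exchange factor for eIF2, by −1.22 ± 0.16 in sgHS1-5 against sgGal4. EIF2S3, the γ subunit of eIF2, fell in sgGal4 against WT by 1.12 ± 0.09 and rose in sgHS2 against sgGal4 by 0.59 ± 0.08. The RNA of eIF2 and its kinases is no measure of eIF2 phosphorylation.

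Of 11 tested amino acid transporters, 8 fell and 0 rose in sgGal4 against WT, and 5 fell and 1 rose in sgHS1-5 against sgGal4. SLC7A11, the cystine transporter, was at 127 and 110.0 CPM in WT and at 21.7, 36.7 and 32.4 CPM in sgGal4, and fell by 1.96 ± 0.23 on the log2 scale. It rose against sgGal4 in sgHS2 by 1.29 ± 0.22 and in sgHBG by 0.82 ± 0.22. SLC6A9, a glycine transporter, differed by −2.0 ± 0.17 in sgGal4 against WT and by −2.86 ± 0.19 in sgHS1-5 against sgGal4, both called. The same differences were −0.40 ± 0.10 and −0.85 ± 0.09 for SLC1A5, a glutamine carrier, both called.

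Cytosolic tRNA synthetases, several of which ATF4 induces, fell for 15 of 20 and rose for 1 in sgHS1-5 against sgGal4, whereas in sgGal4 against WT 6 rose and 6 fell. The alanyl enzyme AARS, the methionyl enzyme MARS and the tryptophanyl enzyme WARS differed by −2.07 ± 0.11, −1.81 ± 0.09 and −2.04 ± 0.12 in sgHS1-5 against sgGal4. AARS was also lower than sgGal4 in sgHS2 (−0.70 ± 0.11) and sgHBG (−0.92 ± 0.11).

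The ER arms of the unfolded protein response, set by ATF6 and XBP1, fell for 18 of 20 genes and rose for 0 in sgHS1-5 against sgGal4. In sgHS2 and in sgHBG against sgGal4 10 of the 20 fell, while 2 and 1 rose. The chaperone HSPA5, or BiP, was at 2071 and 2013 CPM in WT, 2236, 1496 and 1504 CPM in sgGal4 and 551, 493 and 519 CPM in sgHS1-5. HSPA5 fell in sgHS1-5 against sgGal4 by 1.74 ± 0.14 on the log2 scale, HERPUD1, an ER degradation factor, by 2.42 ± 0.18, and the chaperone HYOU1 by 1.27 ± 0.12. Without sgHS1-5 2 and 3 the counts of genes lower than in sgGal4 were 13 of 20 for this list and 12 of 20 for the synthetases, with 17.2% of all genes called.

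Of 10 tested genes for mitochondrial stress, 3 fell and 0 rose in sgHS1-5 against sgGal4 (30%, under the 40.4% of all genes), among them the matrix chaperone HSPA9 (−1.07 ± 0.11) and the protease LONP1 (−0.77 ± 0.15). HSPE1, the small chaperonin, rose in sgGal4 against WT (1.73 ± 0.40), with sgGal4 1 far above its partners. It was at 67.1, 25.1 and 23.0 CPM in sgGal4 and at 11.35 and 11.48 CPM in WT. The other folate enzymes went both ways, 4 of 11 falling and 3 rising in sgHS1-5 against sgGal4. MTHFD1L, of mitochondria, fell by 1.04 ± 0.11 on the log2 scale. ALDH1L1, a cytosolic enzyme, was at 3.56 and 4.83 CPM in WT and at 0.284, 0 and 0.367 CPM in sgGal4, and rose in sgHS2 against sgGal4 (3.60 ± 0.54).

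Of 18 other genes bound or raised by ATF4 or CHOP, 13 fell and 3 rose in sgHS1-5 against sgGal4 (88.9% called, beside 40.4% of all genes). In sgGal4 against WT 8 fell and 0 rose (44.4%, near the 42.4% of all genes), and in sgHS2 against sgGal4 7 rose and 1 fell (44.4%, beside 30.1%). MAP1LC3B, of the autophagosome, fell in sgHS1-5 against sgGal4 by 0.89 ± 0.10 and BBC3, which encodes PUMA, by 1.83 ± 0.20. VEGFA, an angiogenic factor, was at 510 and 521 CPM in WT, 139, 154 and 156 CPM in sgGal4, 443, 429 and 467 CPM in sgHS2, 274, 270 and 267 CPM in sgHBG and 248, 192 and 239 CPM in sgHS1-5. Its sgGal4 libraries were the lowest, and it rose in sgHS1-5 against sgGal4 by 0.60 ± 0.10. The highest log2 difference of the list in that comparison was 7.24, for a gene not named here. Without sgHS1-5 2 and 3 this list had 7 of 17 genes lower and 1 higher than in sgGal4, with 17.2% of all genes called.

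**Figure D5:**
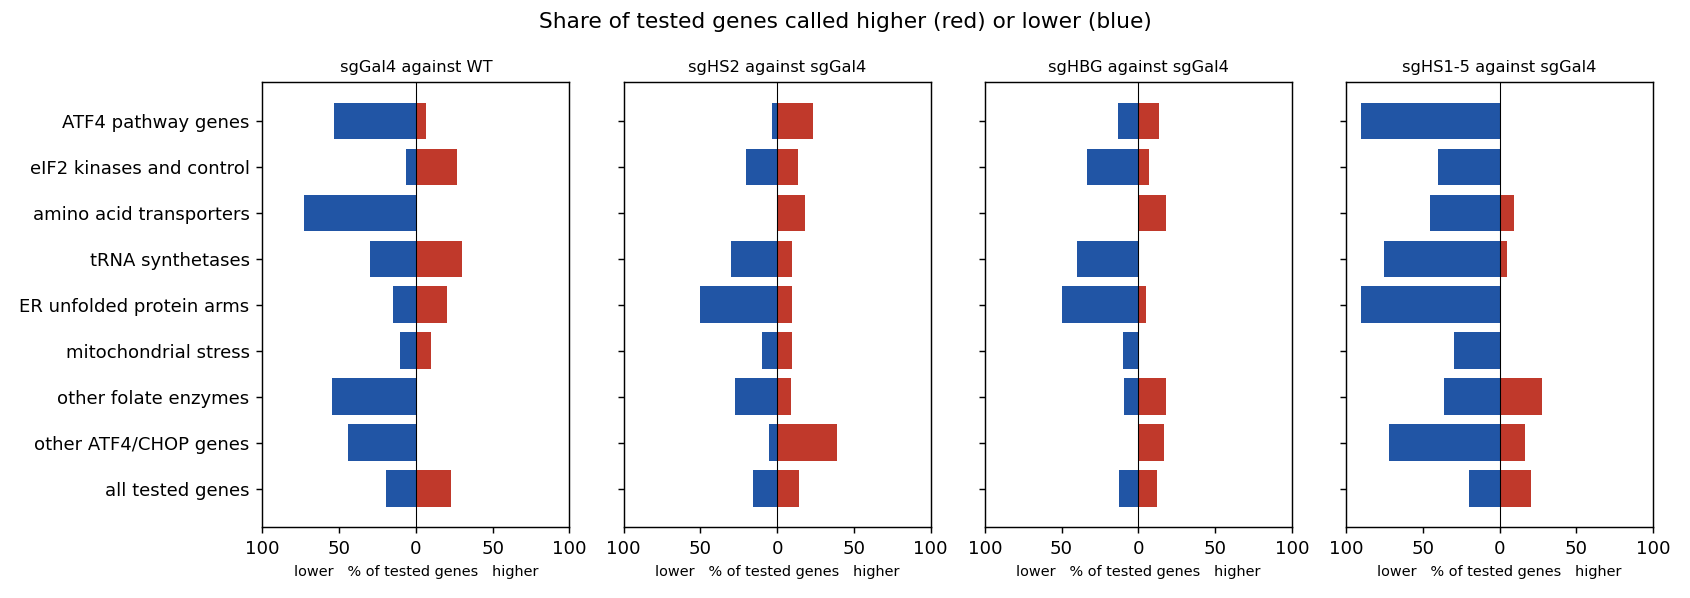
Share of tested genes called higher (red, to the right) or lower (blue, to the left) in each gene list (vertical axis) and among all tested genes (bottom bar), in 4 comparisons (panels, horizontal axis in percent). In sgHS1-5 against sgGal4 the ATF4 pathway genes (27 of 30) and the ER arms (18 of 20) have blue bars of the same length, and all genes have 20.3% higher and 20.2% lower.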

How the data were processed

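RNA-seq libraries of 14 K562 samples were grouped by their titles. The authors deposited raw read counts per gene (whole numbers, unnormalised) and RPKM values (reads scaled to transcript length and depth). The submitters' processing notes name TopHat, Cufflinks, DESeq and hg19; versions, annotation and the counting tool are not given in the sources used here. The library kit named in the labels does not mark strand, so overlapping antisense transcripts cannot be separated.

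The tool for the counts was edgeR 4.0.16 (R 4.3.3), with filterByExpr (minimum count 10, minimum total 15), TMM scaling, a mean per group over all 14 libraries (9 residual degrees of freedom), and the quasi-likelihood F test, two-sided. P-values were adjusted by Benjamini-Hochberg over 14406 genes, with 0.05 as the threshold for a call. RPKM served for levels between genes and, with limma 3.58.1 on log2(RPKM + 1) or log2(RPKM + 0.1), as an alternative; these log2 differences understate changes of low genes. DESeq2 1.42.0 was another alternative. The bound for 0 reads uses 3 counts and covers counting error only. Simulated counts with the same spread in all groups were also fitted. They cannot show how the fit handles the unequal replicates of these libraries.

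The members and lists were chosen with earlier results of these data known. ATF4 was always named, as were, per comparison, the 4 highest and 4 lowest log2 differences among called members with at least 1 CPM and no overlap, and up to 3 genes with the lowest p from each other list; other members are given by level or range. Same-numbered libraries did not deviate together, so the replicate number was a block only in an alternative.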

Additional observations from a re-analysis of the deposited data

How the results depend on the processing

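The counts of called genes in the 4 comparisons of sgHS1-5 and in sgGal4 against WT stayed within 1.5 times under every setting tried: RLE size factors, 2 other low-count filters, DESeq2, the compared groups alone, a replicate block, RPKM with both added amounts and no filter, and left-out libraries. In sgGal4 against WT (18 as reported, 42.4% of all genes called) the compared groups alone gave 17, with 26.35% of all genes called. The count of 27 without sgGal4 1, sgHS2 2 and sgHS1-5 2 and 3 was at that limit, with 70.2% of all genes called. In sgHS2 against sgGal4 (8 as reported) 4 genes were called with RPKM plus 0.1, 5 with unfiltered RPKM, 14 without sgGal4 1 and sgHS2 2 and 24 without these and sgHS1-5 2 and 3, when 58.7% of all genes were called; leaving out single libraries gave 5 to 15. In sgHBG against sgGal4 (8) the replicate block gave 3, the compared groups alone 5, RPKM plus 1, plus 0.1 or unfiltered 5, the 2 left-out libraries 17 (37.4% of all genes called) and the 4 left-out libraries 24 (55.5%); single libraries gave 3 to 10. Without the 4 libraries, 27 genes were called in sgHS2 against WT (17 as reported) with 66.5% of all genes, and 29 in sgHBG against WT (19) with 69.1%, where the compared groups alone also gave 29, with 72.1%. In sgHS2 against sgHBG (2) RLE, no low-count filter and the replicate block gave 1 each, DESeq2 6, the compared groups alone 10, the 2 left-out libraries 9 and the 4 left-out libraries 17; single libraries gave 0 to 0. Of all genes in sgHS2 against sgHBG, 12.2% were called with DESeq2, 26.7% with the compared groups alone and 23.8% without the 2 libraries. Without the 4 it was 43.75%, beside 8.91% as reported. In sgHS2 against sgGal4 it was 30.7% with RPKM plus 0.1, 21.4% with unfiltered RPKM and 42.1% without the 2 libraries. In sgHBG against sgGal4 it was 21.2% with the replicate block, 16% with the compared groups alone and 17.5% to 25.1% with RPKM values. The cause of the moves in these counts was not tested. The replicate block changed no other count by over 1.5 times.

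The sign was checked for ATF4 and for the genes picked in a comparison because they were called there without overlap. VLDLR was outside that check and changed sign in sgHS1-5 against sgGal4 without sgHS1-5 2, as given with its values. Among the checked genes only ATF4 changed sign, in comparisons that did not call it with all libraries. Without the 4 libraries ATF4 was called in each comparison among the other groups except sgHS2 against WT, as given with its values. In sgGal4 against WT it was −0.040 with RPKM plus 1, −0.041 with RPKM plus 0.1, −0.040 unfiltered, −0.33 without sgGal4 1 and sgHS2 2 and −0.33 without the 4 libraries; single libraries gave −0.33 to 0.27. In sgHBG against sgGal4 it was 0.24 without the 2 libraries and 0.24 without the 4, with −0.36 to 0.24 for single libraries. In sgHS2 against sgGal4 single libraries gave −0.15 to 0.45. In sgHS2 against WT it was −0.012 without the 2 libraries, and in sgHBG against WT 0.0063 with the replicate block. Numbers did not pair libraries: the correlation of deviations of same-numbered libraries had a median of −0.004 over 26 pairs, and 1 pair exceeded 0.1. The shallow sgHS1-5 libraries limit precision for genes such as CHAC1 and VLDLR, and FGF21 was too low to compare.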
